A study of Mus musculus with 6 samples.

Results

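The levels of 9 genes of the red cell lineage were read in the kidneys of newborn mice, namely the globin genes Hba-a1, Hbb-b1, Hbb-bh1 and Hbb-y, the heme synthesis gene Alas2, the erythropoietin receptor gene Epor, the transcription factor genes Gata1 and Klf1, and Ahsp. They were chosen by name, and a probe was taken as theirs where its accession belonged to the gene in a RefSeq table. Of the 9 genes 7 had such a probe, against 20659 named genes on the array in all. Hbb-b1 and Ahsp had no probe that could be named and were not analysed here. Of the 7, 6 passed the filter on dim signal and were tested among 21220 genes, and Gata1 did not pass. The other globin genes with a named probe, 8 in number, are given beside them, and 4 of these were tested. The USP10 KO group was 3 neonates labelled male with knockout of Usp10, a gene for a deubiquitinating enzyme, and the USP10 WT group was 3 neonates labelled male and wild type. Kidneys of both groups were taken about 6 hours after birth, and 1 single-colour Agilent array was hybridised per neonate. The strain, the knockout allele and any Cre driver are not given in the sources used here.

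Haemoglobin is a tetramer of alpha-like and beta-like globin chains, each holding a heme group. In the mouse, primitive red cells of the embryonic yolk sac make Hba-x, Hbb-y and Hbb-bh1 chains, and definitive red cells of fetal liver and marrow make the adult chains of the Hba-a and Hbb-b genes. Erythroid transcription factors such as GATA1 and KLF1 act on these genes through DNA motifs near their starts, and ALAS2 performs the erythroid form of the first step of heme synthesis. The kidney is no site of red cell formation in the mouse, but it is perfused with blood, and newborn blood is rich in young red cells that still hold RNA. These are bulk samples, so fewer red cells and less RNA per red cell cannot be told apart.

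The promoter stretches of 5 globin genes and of Alas2 are shown because the globin copies are read by separate probes and because 2 of the genes studied, Gata1 and Klf1, encode factors that bind such motifs. Each stretch is the 120 bases before the gene start, written 5′ to 3′ on the gene's strand, from RefSeq with build GRCm38.p6. Capitals mark matches on either strand to 5 motifs. CACCC is the core of the motif that KLF1 binds, and CCAAT is the box bound by general promoter factors. TATAA is the usual form of the TATA box, while the form that some globin genes carry in its place is ATAAA. The GATA motif was searched as AGATAA and as the same letters with T first (TGATAA). It was also searched with G in the last place, as AGATAG or, with T first, as TGATAG. The TATA forms can overlap each other, and ATAAA can overlap the reverse of a GATA form.
Hba-a1, at chr11:32283552-32283671 on the + strand: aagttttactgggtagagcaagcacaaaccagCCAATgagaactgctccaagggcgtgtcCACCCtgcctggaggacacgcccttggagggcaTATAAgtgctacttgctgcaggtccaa
Hba-a2, at chr11:32296372-32296491 on the + strand: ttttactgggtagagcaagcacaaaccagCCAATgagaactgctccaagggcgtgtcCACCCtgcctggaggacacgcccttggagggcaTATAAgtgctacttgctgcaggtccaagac
Hbb-bt, at chr7:103813924-103814043 on the - strand: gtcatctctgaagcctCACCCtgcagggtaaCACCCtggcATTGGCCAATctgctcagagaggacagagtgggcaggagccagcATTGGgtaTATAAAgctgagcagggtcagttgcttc
Hbb-bs, at chr7:103827929-103828048 on the - strand: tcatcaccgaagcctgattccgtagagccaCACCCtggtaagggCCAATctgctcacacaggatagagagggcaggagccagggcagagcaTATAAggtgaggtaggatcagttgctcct
Hbb-y, at chr7:103853208-103853327 on the - strand: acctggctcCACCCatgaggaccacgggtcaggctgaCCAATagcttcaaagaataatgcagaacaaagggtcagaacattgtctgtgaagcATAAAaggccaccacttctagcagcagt
Alas2, at chrX:150547297-150547416 on the + strand: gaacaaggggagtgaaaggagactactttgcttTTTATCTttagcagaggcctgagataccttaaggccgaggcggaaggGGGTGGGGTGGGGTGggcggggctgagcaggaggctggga

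The stretches of Hba-a1 and Hba-a2 were the same sequence over 117 bases, shifted by 3 bases. Those of the adult genes Hbb-bt and Hbb-bs matched at 88 of 119 aligned bases (73.95%), and that of Hbb-bt matched the embryonic Hbb-y at 44 of 112 (39.29%). CACCC occurred in each of the 6 stretches printed, with 2 matches in Hbb-bt and 3 in Alas2, where 31.71% of all 32851 promoter windows of the same length held it. CCAAT occurred in the 5 globin stretches and not in that of Alas2 (21.29% of all windows). Among the 6 a GATA match was present in Alas2 only (12.76% of all windows). TATAA stood between 23 and 30 bases before the start in the 4 adult globin stretches (11.85% of all windows), and Hbb-y had ATAAA between 24 and 28 bases before its start (20.2% of all windows). The stretches of Hba-x, Epor, Gata1 and Klf1 were searched too but are not printed. Among these Epor had no CACCC match, and Hba-x, Epor and Klf1 each had a GATA match. The embryonic Hba-x had TATAA, so TATAA did not divide embryonic from adult genes here. In Hba-x and in the adult Hbb-bt the ATAAA match overlapped TATAA within the letters TATAAA, so it did not stand in place of TATAA. These matches are descriptions of the letters in these windows.

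Levels are given below as log2 of the processed intensity relative to the 75th percentile of the array, and a difference is always KO minus WT. Between 64.4% and 72.8% of spots were well above background on the KO arrays, and between 66.5% and 73.9% on the WT arrays. No spot was saturated. The 75th percentile of intensity was 473, 306 and 327 on KO replicates 1 to 3 and 494, 489 and 582 on WT replicates 1 to 3. Each KO array thus lay below each WT array in the value used for scaling. The arrays were read in 2 scans. Scan 2 held KO replicate 3 and WT replicate 1, and scan 1 held the other 4 arrays. The labels were in part not borne out by the transcripts. The single Usp10 probe stood at 3.52 ± 0.14 on KO arrays and at 3.03 ± 0.09 on WT arrays (SD, n = 3 each), a difference of 0.50 ± 0.16 (SE, limma adjusted p = 0.414), so it was not lower in KO. Whether this probe lies in the deleted part is not known. The Y-linked Eif2s3y was not well above background on WT replicate 2 (-8.11), and the brighter Xist probe was well above background on WT replicates 1 (-0.62) and 2 (0.43) and on no other array. WT replicate 1 thus had Xist signal together with Eif2s3y signal (1.14). Of the WT arrays only WT replicate 3 had Eif2s3y signal without Xist signal. Groups are therefore called by their labels, and differences against WT replicate 3 alone are given for Hbb-bh1 and Hbb-y only. WT replicate 3 was the lowest WT array for Alas2 and every tested globin gene, and the highest WT array for Epor and Klf1. Against it alone, the differences of all these genes are therefore larger in size than those given below against the WT group. For Hbb-y the sign changed too, from negative against the WT group to positive against WT replicate 3 alone. WT replicate 3 also had the highest 75th percentile, and the part of the scaling in these differences was not tested.

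None of the 10 tested genes of the red cell lineage was shown to differ between KO and WT kidneys, and in each the neonates of the groups overlapped. Of the 6 tested members 0 passed limma's adjusted p of 0.05, where 0.0801% of all genes tested passed, and of the 4 other globin genes 0 passed. At an unadjusted p under 0.05 the counts were also 0 of 6 and 0 of 4, where 10.4% of all genes passed. For none of the 10 did the groups fail to overlap, where 18.2% of all genes had groups that did not overlap. The median difference of the 6 members was 0.037 on the log2 scale, beside 0.031 over all genes tested, and 3 of the 6 were higher on average in KO. With 3 arrays per group the precision was limited, and the intervals below say which sizes of change remain possible.

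**Figure D1:**
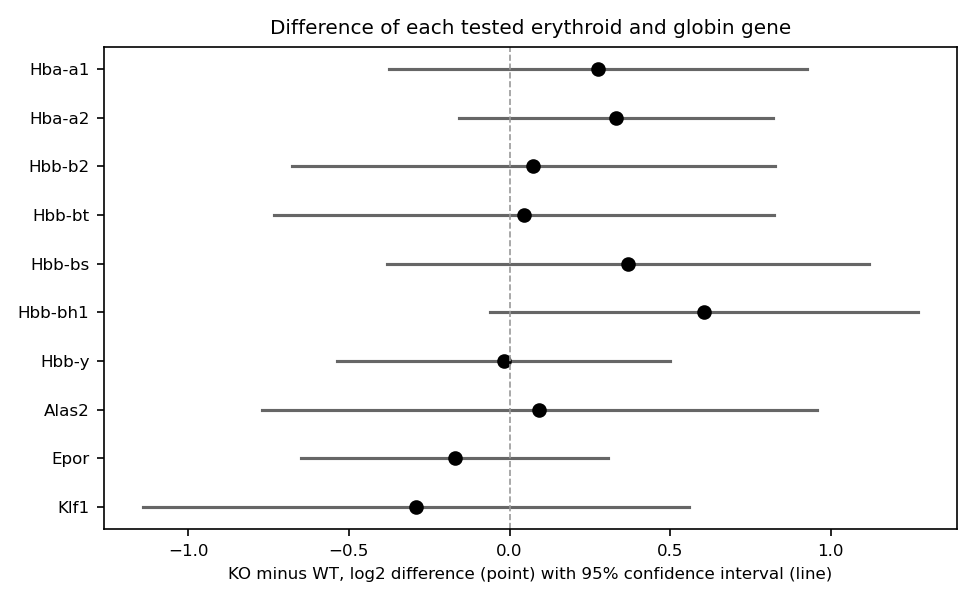
Log2 difference KO minus WT (x axis) of the 6 members and 4 other globin genes tested (rows), as points with 95% confidence intervals from limma as lines. Every interval includes 0; the widest belongs to Alas2 and reaches from -0.77 to 0.96.

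The alpha globin genes encode the adult alpha chain. Hba-a1 stood at 5.96, 5.03 and 5.62 in KO kidneys, against 5.18, 5.59 and 5.01 in WT kidneys. The highest array was KO replicate 1 and the lowest WT replicate 3, with KO replicate 2 almost as low, so the groups overlapped. The difference was 0.28 ± 0.28 (SE, limma adjusted p = 0.712), with a 95% confidence interval from -0.37 to 0.93, or from 0.771-fold to 1.90-fold. It was 0.13 with quantile normalisation, 0.064 without KO replicate 1 and 0.53 without KO replicate 2. Its neighbouring copy Hba-a2, read by another probe, stood at 6.49, 6.86 and 6.81 in KO and at 6.52, 6.59 and 6.06 in WT. Here KO replicates 2 and 3 were the 2 highest, WT replicate 3 was the lowest, and KO replicate 1 fell among the WT arrays. The difference was 0.33 ± 0.21 (SE, limma adjusted p = 0.570), but 0.059 with quantile normalisation and 0.16 without WT replicate 3. The coding sequences of the 2 copies are nearly identical, so which copy each probe reads is uncertain. Yet the probes did not order the arrays alike, and over the 6 arrays their Pearson r was 0.21. Before scaling, the Hba-a2 probe gave intensities of 42437, 35444 and 36771 in KO and of 45306, 47247 and 38740 in WT. Its highest intensity was 1.33 times its lowest, while that ratio was 2.95 for the Hba-a1 probe. KO replicates 2 and 3, where the scaled Hba-a2 level was highest, were the arrays with the lowest 75th percentile.

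The adult beta chain genes were read by probes for Hbb-b2, Hbb-bt and Hbb-bs. In laboratory mice Hbb-b1 and Hbb-b2 are the adult pair of one haplotype of the beta globin locus and Hbb-bs and Hbb-bt that of another, and their sequences are close enough that a probe may read more than 1 of them. Hbb-b2 stood at 5.10, 3.98 and 4.39 in KO kidneys, against 4.24, 4.83 and 4.18 in WT kidneys. KO replicate 1 and WT replicate 2 were high and the other 4 lay within a narrow band, so arrays of 1 group differed more than the group means. The difference was 0.074 ± 0.32 (SE, limma adjusted p = 0.940), with an interval from -0.68 to 0.82. Hbb-bt stood at 5.92, 5.16 and 6.16 in KO and at 5.99, 5.95 and 5.16 in WT. Each group held 1 low array, KO replicate 2 and WT replicate 3, and its other 2 arrays lay close together. The Hbb-bt difference was 0.045 ± 0.33 (SE, limma adjusted p = 0.968), from 0.602-fold to 1.77-fold. Hbb-bs, whose probe was much dimmer, stood at -0.49, -1.40 and -1.24 in KO and at -1.62, -0.88 and -1.73 in WT. Its order of arrays was close to that of Hbb-b2, with KO replicate 1 and WT replicate 2 on top, and its difference was 0.37 ± 0.32 (SE, limma adjusted p = 0.673), with 0.089 without KO replicate 1 and 0.63 without WT replicate 2. The differences of Hbb-b2 and Hbb-bt were negative with quantile normalisation, at -0.048 and -0.13, so these genes have no settled direction.

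**Figure D2:**
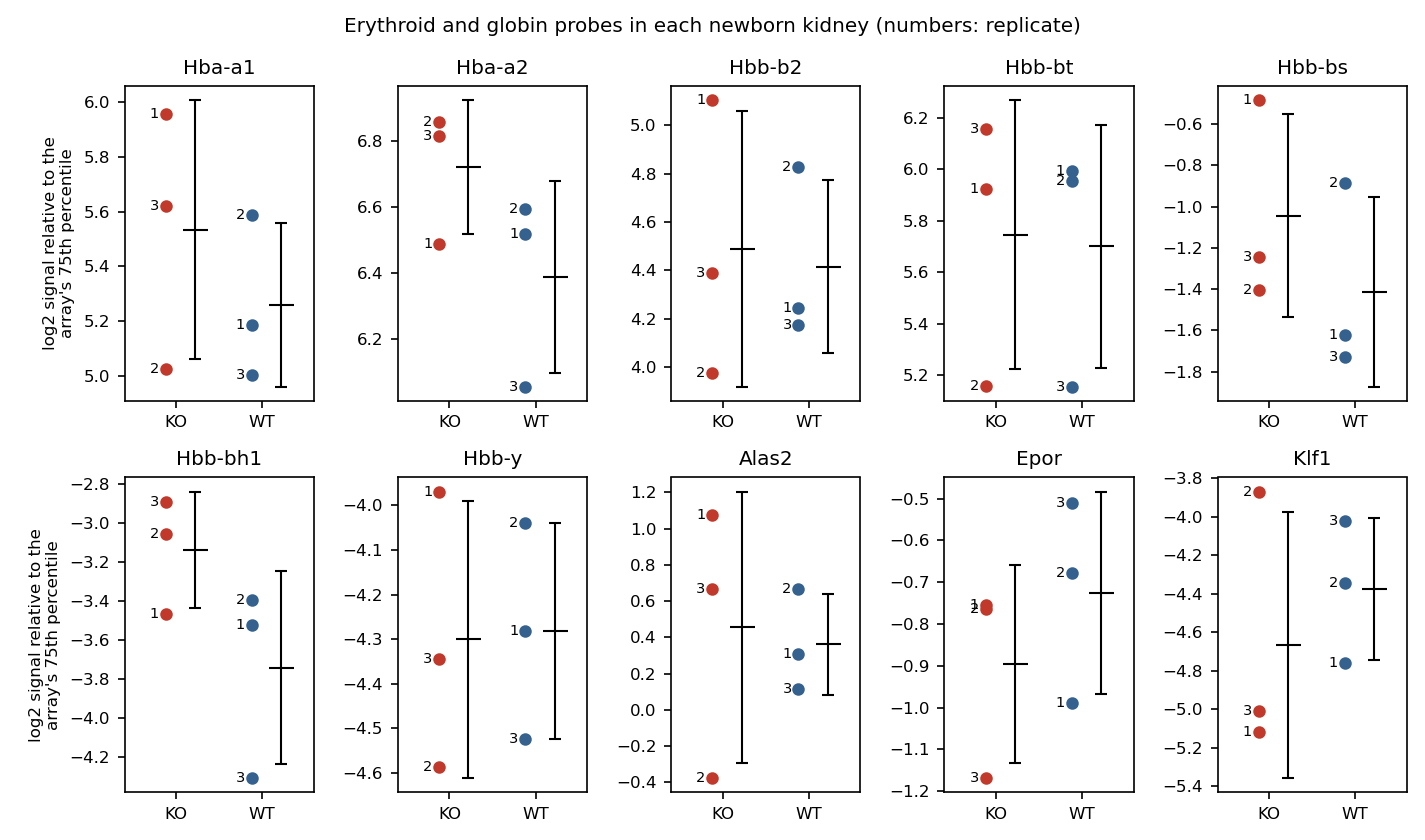
Log2 signal relative to the 75th percentile of the array (y axis, own range in each panel) for the 10 tested genes, with KO on the left and WT on the right. Points are single neonates numbered by replicate, and bars are the mean and SD of 3. In every panel the groups overlap, and KO replicate 1 and WT replicate 2 are the highest of their groups for Hba-a1, Hbb-b2, Hbb-bs, Hbb-y and Alas2.

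The embryonic beta-like genes gave dim signal that was well above background on all 6 arrays for 1 probe each. Hbb-bh1 stood at -3.47, -3.06 and -2.89 in KO kidneys, against -3.52, -3.40 and -4.31 in WT kidneys. WT replicate 3 was the lowest by far, and KO replicate 1 fell between WT replicates 1 and 2. The difference, 0.61 ± 0.28 (SE, limma adjusted p = 0.498), was the largest in size among the 6 members in this fit, with an interval from -0.061 to 1.27. It was 0.59 within scan 1 and 0.63 within scan 2, and the adjusted p with scan as a block was 0.284. Without WT replicate 3 it was 0.32, and against WT replicate 3 alone 1.17 (limma adjusted p = 0.516, with the spread taken from the KO arrays and the lone WT array assumed to vary like them). The difference between the groups was 0.56 with quantile normalisation, 0.57 with scaling to the array median and 0.48 with normexp and the 75th percentile. With normexp and quantile normalisation it was 0.23. Before scaling, the Hbb-bh1 probe gave intensities of 42.7, 36.8 and 44.0 in KO and of 43.0, 46.4 and 29.3 in WT. Its highest intensity was 1.58 times its lowest, and the KO values lay within the range of the WT values. How much of the Hbb-bh1 difference comes from the scaling was not tested. Hbb-y stood at -3.97, -4.59 and -4.34 in KO and at -4.28, -4.04 and -4.52 in WT, with KO replicate 1 and WT replicate 2 on top as for the adult Hbb-b2. Its difference was -0.019 ± 0.22 (SE, limma adjusted p = 0.981), with an interval from -0.54 to 0.50. A second Hbb-y probe was well above background on none of the 6 arrays. The same held for Hba-x, the embryonic alpha-like gene, for Hbq1a, and for 1 of 2 probes of Hbb-bh2. The other Hbb-bh2 probe was well above background on 1 KO array and 2 WT arrays. Hbq1b, a theta globin gene, was above background on 2 arrays of each group and stood at -1.59 on KO replicate 2, against -5.32 and -7.35 on the other KO arrays and between -5.86 and -4.75 on the WT arrays. It did not pass the filter and was not tested.

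The change of embryonic relative to adult beta-like signal was compared between arrays by 1 value per array, the mean of Hbb-bh1 and Hbb-y minus the mean of Hbb-b2, Hbb-bs and Hbb-bt. The value was -7.23, -6.40 and -6.72 in KO kidneys, against -6.77, -7.02 and -6.95 in WT kidneys. The KO arrays lay on both sides of the 3 WT arrays. The means were -6.78 ± 0.42 in KO and -6.91 ± 0.13 in WT (SD, n = 3 each), a difference of 0.13 (two-sided exact permutation test, p = 0.6, where 0.1 is the smallest p that 20 splits allow). It was 0.17 within scan 1 and 0.055 within scan 2, and -0.061 without KO replicate 2. As the probes bind with different efficiency, the level of this value has no meaning of its own and only its change between arrays was read.

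**Figure D3:**
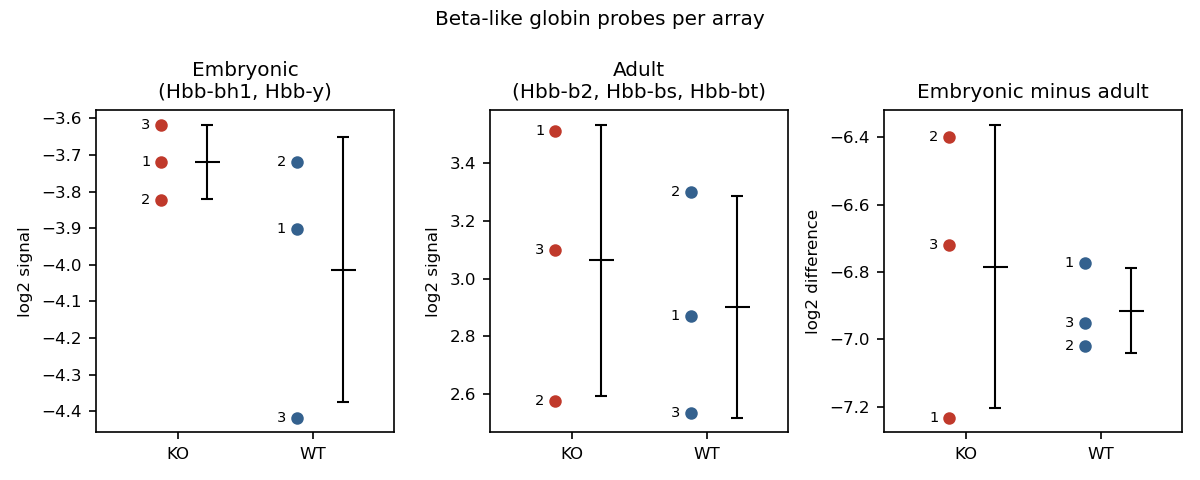
Mean log2 signal of embryonic probes (left), of adult probes (middle) and their difference (right) for KO and WT arrays, with points numbered by replicate and bars for mean and SD of 3. In the right panel the KO arrays span -7.23 to -6.40 and enclose the WT arrays.

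Alas2, the erythroid enzyme of heme synthesis, stood at 1.07, -0.38 and 0.67 in KO kidneys, against 0.31, 0.66 and 0.12 in WT kidneys. Both the highest and the lowest array were labelled KO, 2.73-fold apart. The difference was 0.092 ± 0.37 (SE, limma adjusted p = 0.936), and it was -0.22 without KO replicate 1, -0.013 without KO replicate 3 and -0.031 without WT replicate 3, against 0.51 without KO replicate 2. Epor encodes the receptor that carries the survival signal of erythropoietin in red cell precursors. It stood at -0.75, -0.76 and -1.17 in KO and at -0.99, -0.68 and -0.51 in WT. It was lowest on KO replicate 3, with WT replicate 1, the other array of scan 2, next. The difference was -0.17 ± 0.20 (SE, limma adjusted p = 0.759), with -0.17 within scan 1 and -0.18 within scan 2, and the interval from -0.65 to 0.31 was the narrowest of all 10 genes. It lay between -0.30 and -0.034 without single arrays. Hbb-bh1 and Hba-a2 were high where Epor was low in KO replicate 3, and low where Epor was highest in WT replicate 3.

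The erythroid transcription factors were close to the detection limit. Klf1, which activates the adult beta globin gene, stood at -5.12, -3.87 and -5.01 in KO kidneys, against -4.76, -4.35 and -4.02 in WT kidneys. Klf1 was not well above background on KO replicate 3 and so passed the filter through WT, where its mean was higher. Its highest array, KO replicate 2, was the one where Hbb-b2 and Alas2 were lowest. The difference was -0.29 ± 0.36 (SE, limma adjusted p = 0.769), and it was -0.69 without KO replicate 2 and -0.065 without KO replicate 1. With normexp background correction it was 0.29 after scaling to the 75th percentile and -0.026 after quantile normalisation, so it has no settled direction. Gata1, the factor on which red cell formation depends, was well above background on KO replicate 2 and WT replicate 2 only and was not tested. Its log2 signal was -5.83, -5.57 and -5.38 in KO and -6.28, -5.41 and -6.94 in WT, with overlap between the groups. The probe for erythropoietin, the hormone that the kidney makes in the adult, was well above background on WT replicate 3 only.

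The spread within a group was larger in most of these genes than in a typical gene. With 1 array per neonate, spread between neonates cannot be told apart from spread between arrays. The within-group SD was 0.39 for Hba-a1, 0.48 for Hbb-b2, 0.50 for Hbb-bt, 0.56 for Alas2 and 0.55 for Klf1, where the median over all genes tested was 0.27. Between 76.6% and 90.0% of all genes had a smaller SD than each of these 5. That comparison takes in genes of all signal levels, and Klf1 was dim and not well above background on KO replicate 3. Hbb-y, Hba-a2 and Epor had SDs of 0.28, 0.25 and 0.24, close to that median. Of the 10 genes 7 are described by 2 patterns over the arrays. Hba-a1, Hbb-b2, Hbb-bs, Hbb-y and Alas2 were highest on KO replicate 1 and high on WT replicate 2, and Pearson r among these 5 lay between 0.76 and 0.96 over 6 arrays. Hba-a2 and Hbb-bh1 followed each other (r = 0.98) and were highest on KO replicates 2 and 3 and lowest on WT replicate 3. Before scaling, the highest intensity of these 2 probes was 1.33 and 1.58 times the lowest. The 75th percentile used for scaling was lowest on KO replicates 2 and 3 and highest on WT replicate 3. The part of the scaling in this second pattern was not tested. Hbb-bt, highest on KO replicate 3, had r between 0.47 and 0.78 with the first 5 genes and of 0.33 and 0.45 with this pair, and Epor and Klf1 were in neither pattern, with r between -0.87 and 0.084 with the 8 other genes. These correlations describe 6 arrays that share a scaling, and no test was made of them. In the first pattern the highest array of each of the 5 genes was KO replicate 1, of scan 1, and the lowest was KO replicate 2 or WT replicate 3, also of scan 1.

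**Figure D4:**
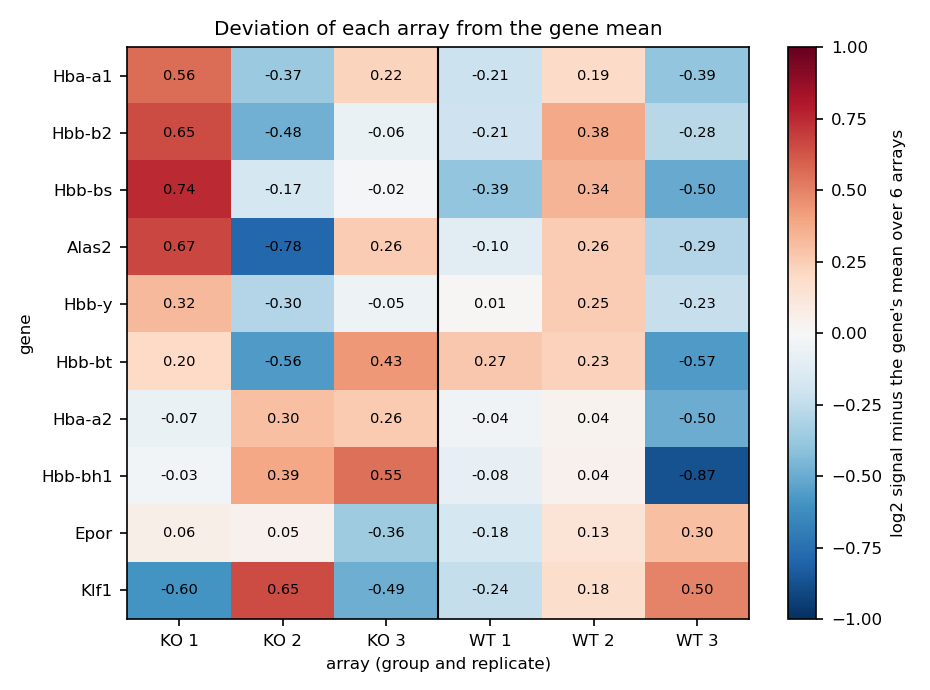
Log2 signal of each array (columns, KO left of WT) minus the mean of the gene over the 6 arrays (rows, colour from blue for below to red for above). KO replicate 1 stands 0.56 above the mean for Hba-a1 and 0.67 above it for Alas2, while Hba-a2 and Hbb-bh1 are lowest on WT replicate 3, by -0.50 and -0.87.

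Genes whose pattern over the 6 arrays was most like that of a globin or heme gene were ranked by Pearson r. The ranking was among the 15196 named genes tested, leaving out the members, the other globins and clone or predicted genes. Tested genes without a name were not ranked. Closest to Hbb-bt, the brightest adult beta globin probe, were Trim59 (r = 0.996) and Cpox (r = 0.994), an enzyme of heme synthesis. Mkrn1, from the list of red cell enzymes and maturation genes, was the sixth (r = 0.988). Cpox stood at 1.91, 1.51 and 2.03 in KO kidneys, against 1.90, 1.95 and 1.54 in WT kidneys, and so was low on KO replicate 2 and WT replicate 3 just as Hbb-bt was. Its r with Hbb-bt stayed between 0.953 and 0.998 under the other scalings and without single arrays. The remaining 5 of the 8 were Tmprss5, Thsd7a, Stx2, Ercc4 and Snhg18, with r between 0.985 and 0.991, and for Tmprss5 r was as low as 0.293 under the other settings. Closest to Alas2 were Negr1 (r = 0.994), Plppr3, Pdpn, Nrp2, Cyp2d26, Aifm3, Dnm1 and Cerox1, with r down to 0.981, and none of them was on a list of red cell genes. These genes were chosen for their r over 6 arrays from that large pool, and no test was made of it.

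Other genes of the red cell were read from 6 lists, and 0 of their tested genes passed limma's adjusted p of 0.05 over all genes, also with scan as a block. The counts at an unadjusted p under 0.05 given for each list stand beside 10.4% of all genes tested (1318 higher and 884 lower in KO), and 53.7% of all genes had a positive difference. The red cell membrane list had 15 of 21 genes tested, with a median difference of 0.038. At an unadjusted p under 0.05, 2 of the 15 were higher and 2 lower in KO. Tspan33, a tetraspanin of red cell precursors, stood at 2.52, 2.76 and 2.43 in KO kidneys, against 2.01, 2.30 and 1.89 in WT kidneys, and the groups did not overlap (difference 0.50 ± 0.18, SE, limma adjusted p = 0.444). Dmtn, which bundles actin in the red cell skeleton, had a difference of -0.84 ± 0.31 (SE, limma adjusted p = 0.442), but after normexp correction it was -0.13 when arrays were scaled to the 75th percentile and -0.38 when they were quantile normalised. Epb41, for protein 4.1 of the skeleton, had one of 0.59 ± 0.25 and Slc14a1, a urea transporter of red cells and kidney, one of -0.70 ± 0.30. The Slc14a1 probe was well above background on 2 KO arrays and 3 WT arrays, so it passed the filter through WT, where it was higher. Among the membrane genes whose probes did not pass the filter were Sptb, Ank1, Rhag, Cldn13 and Icam4. Rhag and Ank1 are markers of the red cell surface and skeleton.

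For heme synthesis and its mitochondrial transport all 16 genes were tested, 11 with a positive difference, and the median was 0.098. At an unadjusted p under 0.05, 2 of the 16 were higher and 0 lower in KO. The heme exporter gene Flvcr1 stood at 1.52, 1.66 and 1.77 in KO, against 1.17, 1.35 and 0.62 in WT, without overlap (difference 0.60 ± 0.22, SE, limma adjusted p = 0.445). Alas1, which performs in other tissues the step that ALAS2 performs in red cells, had a difference of 0.48 ± 0.20 (SE, limma adjusted p = 0.475). Abcb10 (0.59 ± 0.26) and Ppox (-0.50 ± 0.25) came next by unadjusted p. For iron uptake, storage and export 14 of 17 genes were tested, 9 of them with a negative difference, and the median was -0.23. At an unadjusted p under 0.05, 1 of the 14 was higher and 1 lower in KO, a share near that of all genes. The median lay between -0.39 (without KO replicate 3) and -0.12 (without WT replicate 1) when single arrays were left out, and was -0.025 with normexp and the 75th percentile. Ncoa4, which delivers ferritin to degradation, had a difference of 0.71 ± 0.25 and Trf, for the plasma iron carrier transferrin, one of -0.60 ± 0.22 (SE, limma adjusted p = 0.439 for both). Both had groups that did not overlap, as had Ireb2 (0.33 ± 0.16), an iron-regulated RNA-binding protein. Hpx, for the plasma heme carrier hemopexin, was well above background on 1 KO array and 3 WT arrays and passed the filter through WT, so its difference of -1.07 ± 0.55 is set against KO signal that was mostly not above background.

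The erythroid transcription list had 14 of 16 genes tested and a median of -0.0053, with 2 higher and 1 lower in KO at an unadjusted p under 0.05. Myb, a factor of immature blood cells and of some epithelia, stood at -0.21, -0.29 and -0.12 in KO kidneys, against -0.76, -0.81 and -0.95 in WT kidneys. Its arrays fell close together within each group and apart between groups (difference 0.63 ± 0.16, SE, limma adjusted p = 0.321, and 0.137 with scan as a block). Sox6, a repressor of embryonic globin, went the other way without overlap, at -3.52, -3.16 and -3.20 in KO against -2.56, -2.89 and -2.64 in WT (difference -0.60 ± 0.18, SE, limma adjusted p = 0.403). After normexp correction the Sox6 difference was -0.090 (scaled to the 75th percentile) or -0.31 (quantile normalised). Zfpm1, the partner of GATA1, had a difference of 0.45 ± 0.19. Nfe2, with -0.49 ± 0.28, was well above background on 2 KO arrays and 3 WT arrays and passed the filter through WT, where it was higher. In the erythropoietin and stem cell factor signalling list 11 of 12 genes were tested, with a median of 0.26 and with 2 higher and 0 lower in KO at an unadjusted p under 0.05. This median lay between 0.11 (without KO replicate 2) and 0.38 (without KO replicate 1) when single arrays were left out, and was 0.085 within scan 1 and 0.13 with normexp and quantile normalisation. Its smallest p belonged to Bcl2l1, which protects red cell precursors from death (0.47 ± 0.19), and Jak2, the kinase bound to the erythropoietin receptor (0.47 ± 0.20), with limma adjusted p of 0.476 and 0.479. Kitl, for stem cell factor, had a difference of 0.29 ± 0.15 and Stat5a, a target of JAK2, one of 0.41 ± 0.24.

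Red cell enzymes and maturation genes were tested in 25 of 26 cases, with a median of 0.14, and 1 was higher and 2 lower in KO at an unadjusted p under 0.05, a share near that of all genes. Rsad2 (-1.01 ± 0.20) and Ube2l6 (-0.51 ± 0.20) had the smallest p and did not overlap between groups (SE, limma adjusted p = 0.196 and 0.461). Both are also known as interferon-induced genes. The glucose transporter gene Slc2a1 had a difference of 0.71 ± 0.31 (SE, limma adjusted p = 0.482). Across the 6 lists the groups did not overlap for 2 of 15 membrane genes, 2 of 16 heme genes, 3 of 14 iron genes, 3 of 14 transcription genes, 3 of 11 signalling genes and 4 of 25 enzyme genes, against 18.2% of all genes.

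**Figure D5:**
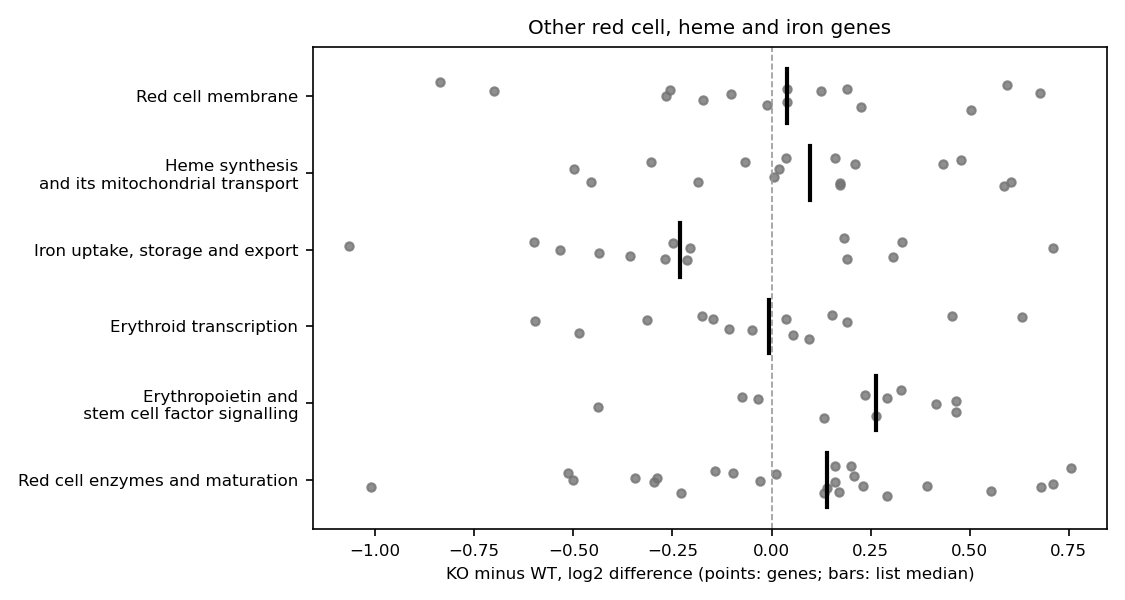
Log2 difference KO minus WT (x axis) of each tested gene of the 6 lists (rows), as points with random vertical offsets, and list medians as bars. Medians lie between -0.23 for iron genes and 0.26 for signalling genes, both moving by over 1.5 times without single arrays, and 0 genes passed the adjusted p.

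Markers of other cells were read beside the red cell genes, and of the marker lists that follow 0 genes passed limma's adjusted p of 0.05. Their counts at an unadjusted p under 0.05 stand beside 10.4% of all genes tested (1318 higher and 884 lower in KO). Their counts of genes whose groups did not overlap stand beside 18.2% of all genes tested. Summed levels are on the linear scale relative to the 75th percentile, and the brightest genes of a list weigh most in them. Platelet and megakaryocyte markers had 6 of 11 genes tested, 3 with a negative difference, and sums of 2.64 to 3.03 in KO and 2.59 to 3.06 in WT. Itga2b, Gp1ba, Gp1bb, Gp5 and Gp6 did not pass the filter. All 12 neutrophil markers were tested, with sums of 4.63 to 6.75 in KO and 5.87 to 6.90 in WT. Of these 9 had a negative difference, 3 were lower and 0 higher at an unadjusted p under 0.05, and 4 had groups that did not overlap. In both of the last counts 1 gene was well above background on 1 KO array and 3 WT arrays. It passed the filter through WT, where it was higher. The neutrophil sum was lowest on KO replicate 2, as were Hbb-b2, Hbb-y and Alas2. Lymphocyte markers had 5 of 9 genes tested, 4 with a negative difference and 1 lower at an unadjusted p under 0.05, and sums of 0.772 to 1.04 in KO and 0.848 to 1.04 in WT. Cd3d, Cd3g, Cd79a and Ms4a1 did not pass the filter.

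Macrophage markers, among them those of cells that take up red cells, had 9 of 11 genes tested, 7 with a negative difference, 3 lower and 0 higher at an unadjusted p under 0.05, and 3 without overlap. The genes named from here to the end of the paragraph were chosen after their values were seen. These 3 were C1qc (-0.87 ± 0.24), C1qa (-0.77 ± 0.21), both for chains of complement C1q, and Spic (-0.84 ± 0.29), a factor of red pulp macrophages that was well above background on 1 KO array and 3 WT arrays. The macrophage sums were 7.08 to 10.7 in KO and 8.01 to 9.26 in WT, with the highest on KO replicate 2, where Cd5l stood at 2.07. Cd163 and Timd4 did not pass the filter. All 8 endothelial markers were tested, 6 with a negative difference and a median of -0.27, 3 lower and 0 higher at an unadjusted p under 0.05, and 4 without overlap. Sox18 (-0.75 ± 0.18), Tek (-0.59 ± 0.23) and Cdh5 (-0.54 ± 0.18) were those 3, while the brightest, Kdr (0.061 ± 0.28) and Flt1 (0.096 ± 0.18), had small differences. The endothelial sums were 16.5 to 21.6 in KO and 19.2 to 23.1 in WT. Hepatocyte markers had 7 of 8 genes tested, 3 with a negative difference, and sums of 30.7 to 37.7 in KO and 24.9 to 31.1 in WT, of which Afp made up the most. Afp had a difference of 0.42 ± 0.20, against -2.0 ± 0.72 for Ahsg, -1.59 ± 0.73 for Alb and -0.66 ± 0.36 for Ttr, and the groups did not overlap for Afp, Ahsg and Serpina1a. The part of these cells in the globin values was not tested. All 14 kidney markers passed the filter, 9 with a negative difference and a median of -0.25, near that of the endothelial markers. At an unadjusted p under 0.05, 1 was lower and 0 were higher, and 1 had groups that did not overlap. The kidney sums were 60.7 to 87.8 in KO and 79.8 to 87.4 in WT, and the lowest sum was on KO replicate 2.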

How the data were processed

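Kidney RNA of 6 neonates was measured, 3 labelled USP10 KO and 3 labelled USP10 WT. The deposited intensity of each spot, per the file headers, is background-subtracted, linear and not normalised between arrays. Agilent Feature Extraction made it. The version is 11.0.1.1 in the deposited file headers, whereas the submitters' processing notes give 9.1. Of 44397 spots, 1377 controls and outlier spots were left out, log2 was taken, the array's 75th percentile subtracted and spots of a probe averaged. Through its accession, 27234 of 39429 probes (69.1%) found a gene in the RefSeq table (GRCm38.p6). The array design is of build mm9, so the table gave names only, besides the promoter sequences. Probes were kept where every array of either group flagged them well above background, and each gene was read by its brightest kept probe. limma 3.58.1 in R 4.3.3 (lmFit, eBayes, two-sided, Benjamini-Hochberg over 21220 genes) compared the groups. It was tested on simulated data, but the outcome is not reported here and no error rate is claimed from it. Nothing besides the labels says how the neonates were related.

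The members and gene lists were chosen with earlier results of these data known. Text could name all members and globin genes, the 4 genes of each list with the smallest p, Usp10, and the 8 genes most like Alas2 and the brightest adult beta globin. Some genes of the lists are not reported here by name. The TATAA motif was added after the sequences were seen. The alternatives were other scalings, normexp background correction (offset 50, on median signal and median background, as deposited by the authors), other filters on dim probes, other probe summaries, an intensity trend, array weights, a replicate block, a scan block, scan 1 alone, WT replicate 3 alone, leaving out each array and other thresholds.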

Additional observations from a re-analysis of the deposited data

How the results depend on the processing

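The count of 0 called members held in all 20 alternative fits, where the lowest adjusted p among the 10 genes was 0.284, with scan as a block. At an unadjusted p under 0.05 Hbb-bh1 passed in 4 of the fits and Klf1 in 1. With the threshold at an adjusted p of 0.1 or an unadjusted p of 0.05 the count was also 0. The count over all genes, 17, was 0 in limma with normexp and quantile normalisation (2248 at an unadjusted p under 0.05), with no filter on dim probes (2050), with the replicate block (1611) and against WT replicate 3 alone (2020). It was 1 with only probes well above background on all 6 arrays or with the mean of probes, 45 with an intensity trend, 36 with array weights, 53 with the scan block and 74 at an adjusted p of 0.1, and without single arrays it lay between 0 and 28, with 28 without KO replicate 3 and 0 without each of the other 5. The embryonic minus adult difference lay between -0.061 and 0.36 without single arrays.

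Hbb-b2 was -0.048 with quantile normalisation, -0.030 with normexp and quantile, and -0.23 to 0.33 without single arrays. Hbb-bt was -0.13, -0.14 and, with normexp and the 75th percentile, -0.046, -0.014 within scan 1 and -0.23 to 0.34 without single arrays. Hbb-y was 0.27 with normexp and the 75th percentile, 0.028 with array weights, 0.0031 within scan 1, 0.22 against WT replicate 3 alone and -0.18 to 0.12 without single arrays. Alas2 was -0.041 within scan 1 and -0.22 to 0.51 without single arrays. With normexp and the 75th percentile, where the median of all genes was 0.15, the values were 0.29 for Klf1, 0.25 for Nfe2, 0.22 for Hpx and 0.19 for Slc14a1. The replicate numbers did not pair the arrays. Deviations from the group means correlated at -0.40, 0.48 and -0.60 between arrays of the same number. With the replicate block 0 members passed, with an adjusted p of 0.711 for Hbb-bh1. Between KO and WT arrays of the same scan these correlations lay between 0.12 and 0.89, and between those of different scans from -0.60 to -0.40. The highest, 0.89, was between KO replicate 3 and WT replicate 1, which were scanned apart from the other arrays. The main fit had no term for scan.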
